A study of Homo sapiens with 8 samples.

Results

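The comparison described here sets 24 h of treatment with the IKKβ inhibitor MLN120B against 12 h in L363, an established human multiple myeloma cell line. It uses 6 of the 8 arrays of the series: samples 1, 2 and 3 at 12 h and samples 1, 2 and 3 at 24 h, joined by the sample number in their titles. The remaining 2 arrays, at 8 h, were not part of it. Each array carried 2 RNAs, one from cells given 12.5 µM MLN120B at 37 °C (Cy5) and one from cells given the solvent DMSO (Cy3), so the values are ratios of the 2 channels, taken as log2 and likely MLN120B over DMSO. No array had the dyes swapped. For how long the DMSO cells were kept is not given in the sources used here, so a difference between the times holds any change in the control cells as well. Every culture is of one cell line, and nothing in the labels says that samples came from separate cultures; p-values then reflect how far these samples lie apart, which can be technical. In such bulk RNA, fewer cells of a kind and less RNA per cell cannot be told apart.

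IKKβ phosphorylates the IκB proteins, which hold NF-κB dimers in the cytoplasm, and so marks them for destruction. Released NF-κB enters the nucleus and induces genes of survival, cytokine signalling and antigen presentation, together with genes of its own inhibitors. Myeloma cells often depend on this pathway, which is active in many of them through mutation or through signals of the bone marrow. MLN120B blocks the kinase, and a longer exposure can add responses of other pathways to the early loss of NF-κB transcription.

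The difference reported for a gene is its ratio at 24 h minus its ratio at 12 h in the same sample number, after each array was centred on its median. A value below 0 means that the gene was lower at 24 h, relative to DMSO, than at 12 h. A dye bias that is the same on both arrays of a pair cancels in this difference. Were the ratios DMSO over MLN120B instead, every direction would turn and every size would stay. Features with a value on all 6 arrays numbered 4807, and they gave 3467 rows, 2188 named genes and 1279 features with no single gene listed. The ratios hold no expression levels, so the presence of plasma cell markers could not be checked.

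The 3 pairs differed widely in spread, which bears on every mean below. Sample 1 gave differences with an SD of 1.23 over rows, against 0.20 for sample 2 and 0.37 for sample 3, and 1170 rows of sample 1 moved by over 1 on the log2 scale, against 1 and 55. The median row lay at 0.16 in sample 1, -0.022 in sample 2 and -0.18 in sample 3, and the mean difference over pairs had a median of 0.002. A mean over the pairs thus leans on sample 1. Between pairs, the differences correlated at 0.16 (samples 1 and 2), 0.12 (samples 1 and 3) and 0.062 (samples 2 and 3; Pearson, across 3467 rows that are not independent replicates). The cumulative plot of differences shows the 3 distributions.

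**Figure D1:**
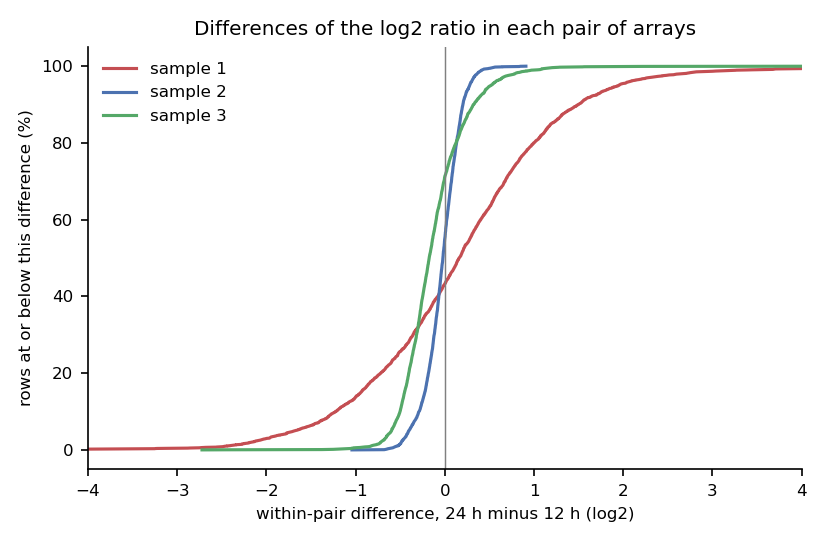
Cumulative share of the 3467 rows (y axis, %) at or below each within-pair difference of 24 h minus 12 h (x axis, log2), 1 line per sample number. The line of sample 1 is the flattest and that of sample 2 the steepest; 29 rows of sample 1 and 1 of sample 3 lie outside the limits of 4 drawn.

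No row passed limma's paired test after Benjamini-Hochberg adjustment (0 of 3467, a share of 0.0%; smallest adjusted p = 0.772). At an unadjusted p under 0.05 there were 34 rows (0.981%), 24 lower (0.692%) and 10 higher (0.288%) at 24 h. That share of rows is smaller than the threshold of 0.05 itself, so these rows are no excess. All 3 differences were below 0 in 732 rows, 21.1% of those tested, and above 0 in 325, 9.37%. These shares depend on the centring: with each array centred on the features measured on all 6 arrays, 565 rows were lower (16.3%) and 510 higher (14.7%). Every 24 h array lay below every 12 h array in 157 rows, or 4.53%, and above in 55, or 1.59%. With 3 pairs, an exact two-sided sign-flip test of a single gene cannot go below p = 0.25. The words lower and higher below describe measured values, since no gene passed the test.

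Among the genes higher at 24 h in all 3 pairs, INSIG1 had the smallest p. It encodes an endoplasmic reticulum protein that retains the sterol regulators SREBP and so restrains cholesterol synthesis. Its log2 ratio was 0.48, -0.04 and -0.08 at 12 h in samples 1, 2 and 3, and 1.24, 0.87 and 0.70 at 24 h. All 24 h values lay above all 12 h values, and the 3 differences, 0.77, 0.91 and 0.79, were close to each other although the pairs differ so much in spread (mean 0.82 ± 0.08, SD, n = 3 pairs). In sample 2 this was the highest difference of any named gene. The other feature annotated to INSIG1 had values in 2 pairs and lay the other way there, at -0.42 in sample 1 and -0.37 in sample 3. With the features available on each array averaged and at least 2 complete pairs asked for, the mean was 0.38. In sample 2 this set an array with both features against an array with 1, so that difference mixes features. The INSIG1 promoter from RefSeq (GRCh38.p14, chr7:155297628-155297927, plus strand, 250 bases before to 50 after the start) is shown because the gene leads the comparison, with the letters CCAAT on either strand in capitals:
INSIG1: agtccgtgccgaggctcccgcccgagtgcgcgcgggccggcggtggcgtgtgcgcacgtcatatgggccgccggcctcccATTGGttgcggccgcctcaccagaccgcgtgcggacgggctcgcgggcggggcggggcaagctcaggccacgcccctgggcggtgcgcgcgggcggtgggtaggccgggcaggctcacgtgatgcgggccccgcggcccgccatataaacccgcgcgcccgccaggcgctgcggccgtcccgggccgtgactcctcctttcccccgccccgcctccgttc

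ITGB7, the integrin β7 chain that pairs with α4 or αE to hold lymphoid cells to their ligands, was higher at 24 h in each pair and had the largest mean difference of the 8 leading genes of this direction. Its ratio was -0.70, 0.43 and 1.23 at 12 h and 1.95, 0.83 and 2.04 at 24 h in samples 1, 2 and 3. The groups overlapped, because sample 3 was already high at 12 h, but the ratio was higher at 24 h in each pair (2.65, 0.40 and 0.80; mean 1.28 ± 1.20, SD). All 3 features with values on every array were higher in all pairs, with means from 0.78 to 1.89, another, measured in the pair of sample 1 alone, lay at -0.46 there, and without sample 1 the gene's mean was 0.60.

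SLA encodes an adaptor that dampens antigen receptor signalling. Its ratio went from -0.61, -0.14 and -0.62 at 12 h to 0.99, 0.26 and 0.06 at 24 h, with no overlap of the groups. Its other features disagreed, one lying at -1.01 in sample 1 and -0.30 in sample 3 and one at 0.33 in sample 2 and 0.27 in sample 3. MED1, a Mediator subunit that nuclear receptors bind, had a mean difference of 0.81 ± 0.59 (SD, n = 3 pairs), and its groups did not overlap either. DNAJC7, a co-chaperone of the heat shock proteins, differed by 0.97 ± 0.82, and PARP9, an ADP-ribosyltransferase of the interferon and DNA damage responses, by 0.56 ± 0.20, with 2 further PARP9 features at -0.04 and 0.08 in sample 2. The zinc finger gene ZNF154 stood at 0.82 ± 0.34 and TTC33 at 0.65 ± 0.39.

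**Figure D2:**
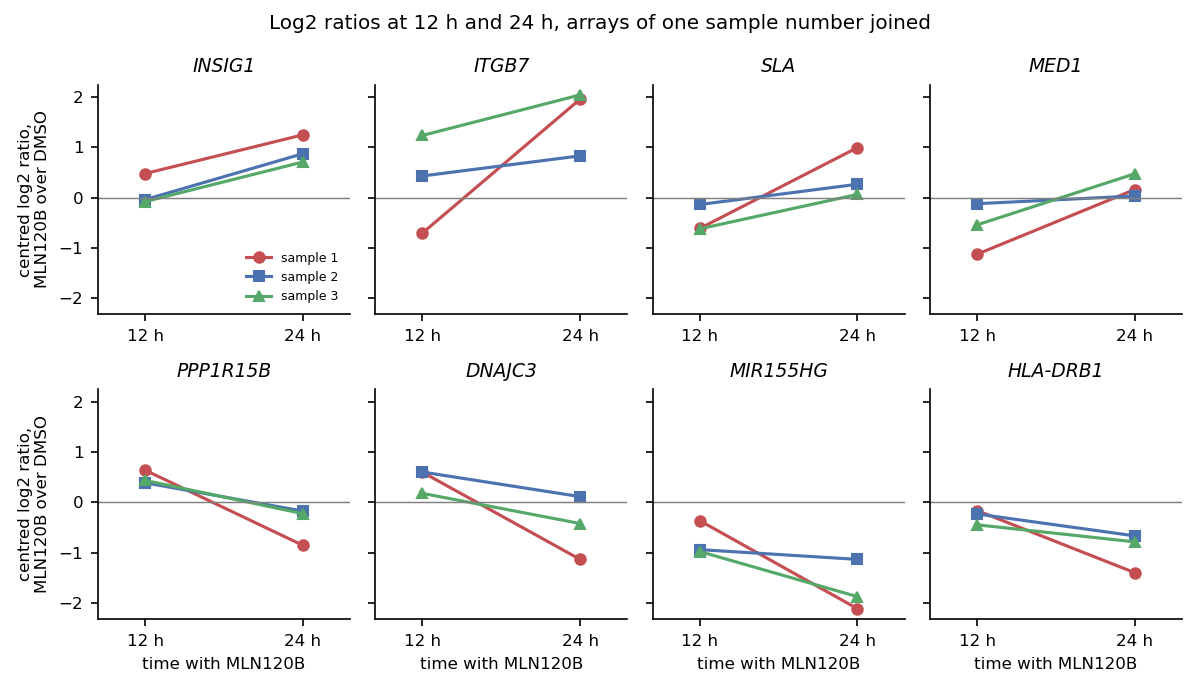
Centred log2 ratios (y axis, MLN120B over DMSO) at 12 h and 24 h (x axis) for 8 genes; each line joins the 2 arrays of one sample number. INSIG1, ITGB7, SLA and MED1 go up in all 3 samples, and PPP1R15B, DNAJC3, MIR155HG and HLA-DRB1 go down in all 3.

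The 8 genes lower at 24 h with the smallest p are given next, none of which passed (limma adjusted p = 0.772). PPP1R15B, a subunit that directs a phosphatase to the initiation factor eIF2α, had ratios of 0.64, 0.39 and 0.44 at 12 h and -0.85, -0.17 and -0.22 at 24 h in samples 1, 2 and 3. It was above the array median on every 12 h array and below it on every 24 h array (mean difference -0.90 ± 0.51, SD, n = 3 pairs). DNAJC3, a chaperone cofactor of the endoplasmic reticulum that inhibits eIF2α kinases, was at 0.60, 0.60 and 0.18, and then at -1.13, 0.12 and -0.42. Its groups did not overlap, the mean difference was -0.94 ± 0.69, and its second feature, with values in 2 pairs, lay at -0.37 in sample 1 and -0.06 in sample 3. EIF5, which triggers GTP hydrolysis on eIF2, was at 1.52, 0.24 and 0.27 and then at 0.15, -0.14 and -0.35, again without overlap (-0.79 ± 0.52).

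The other 5 genes of this direction have varied roles. COX14, an assembly factor of cytochrome c oxidase, was lower by nearly the same amount in each pair (-0.63, -0.53 and -0.67), although its level relative to DMSO differed between samples (12 h ratios of -0.93, 0.37 and 0.31). SOS1, the exchange factor that activates Ras, was at -0.18, 0.27 and 1.42 at 12 h and at -0.88, -0.16 and -0.11 at 24 h. A second SOS1 feature lay the other way, at 0.16 in sample 2 and 0.23 in sample 3. PRKAR1B, a regulatory subunit of protein kinase A, differed by -1.05 ± 0.86 (SD, n = 3 pairs), while a second feature lay at 0.02 in sample 2 and -0.02 in sample 3, and TMX3, a disulfide isomerase of the endoplasmic reticulum, by -0.92 ± 0.71, another of its features lying at -0.14 in sample 2 and 0.33 in sample 3. RPL22L1, a paralogue of the ribosomal protein gene RPL22, with which it can share signal, differed by -0.62 ± 0.24.

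MIR155HG, the transcript from which miR-155 is cut and a known NF-κB target in B cells, was below the array median at both times, and further below it at 24 h in each pair. Its ratio was -0.36, -0.94 and -0.97 at 12 h and -2.11, -1.13 and -1.87 at 24 h in samples 1, 2 and 3. The groups did not overlap, and the differences were -1.74, -0.19 and -0.90 (mean -0.94 ± 0.78, SD). Sample 2 had the smallest difference, and without sample 1 the mean was -0.54. Both features with values on all 6 arrays were lower in every pair, with means of -1.15 and -0.73. The mature product itself was not measured on these arrays. Its main form from RefSeq (GRCh38.p14, chr21:25573983-25574006, plus strand) is printed to show what the transcript yields, with the seed, bases 2 to 8, in capitals:
hsa-miR-155-5p: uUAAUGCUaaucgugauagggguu

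Among the NF-κB target genes of the study's signature, 8 of 9 measured had differences of both signs over the pairs, beside 2410 of all 3467 rows. Of 11 genes on this list, which the study chose in part on these arrays, 9 had values on all 6, and 1 of 9 was lower in all 3 pairs, against 21.1% of all rows; 0 were higher. NFKBIA, the gene of the NF-κB inhibitor IκBα, was at -1.08, -0.90 and -1.38 at 12 h and at -0.77, -0.99 and -1.65 at 24 h in samples 1, 2 and 3. Its groups overlapped, the differences had both signs (0.31, -0.09 and -0.27), and the mean was -0.02 ± 0.30 (SD, n = 3 pairs), with limma's adjusted p at 0.988. TNFAIP3, which encodes the ubiquitin-editing feedback regulator A20, was the member lower in every pair, at -1.52, -0.37 and -0.96 and then at -1.64, -0.54 and -1.43 (-0.25 ± 0.19).

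Of the 9 measured members 8 had a mean difference below 0, beside 1726 of all 3467 rows. The pairs of most members differed in sign, and so did those of most rows. NFKB2, whose product is processed to p52, was at -2.57, -0.65 and -1.28 and then at -2.35, -0.91 and -1.81; the differences were 0.22, -0.27 and -0.53. RELB, the partner of p52, was at 0.73 in sample 1 at 12 h but at -0.98 and -0.99 in samples 2 and 3, and its 24 h ratios were -0.90, -0.75 and -1.43. Its mean difference of -0.61 therefore rests on sample 1. The same holds for NFKBIE, the IκBε gene, which was at -3.27 in sample 1 at 24 h and between -0.74 and -0.18 on the 5 other arrays. MALT1, the paracaspase, differed by -0.66, 0.18 and -0.95. WNT10A, a Wnt ligand, stood at 0.24 ± 0.35 and IL2RG, the shared cytokine receptor chain, at -0.07 ± 0.18.

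Over the study list, the median of the mean differences was -0.25, beside 0.002 over all rows. By pair the list median was 0.04 in sample 1, -0.09 in sample 2 and -0.45 in sample 3, where all rows had medians of 0.16, -0.022 and -0.18. Quantile and scale normalization, which equalise the spread of the arrays, gave list medians of -0.71 and -0.63, beside -0.037 and -0.026 over all rows. Equalising the spread rescales the arrays, so these sizes cannot be set directly against -0.25. The count of members lower in every pair depended on the scaling. It was 1 of 9 (11.1%), below the 21.1% of all rows, and 3 of 9 (33.3%) with the arrays centred on the features measured on all 6, above the 16.3% of all rows there. It was 3 of 9 after quantile normalization (19.4% of all rows) and 4 of 9 (44.4%) after scale normalization (19.5%).

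**Figure D3:**
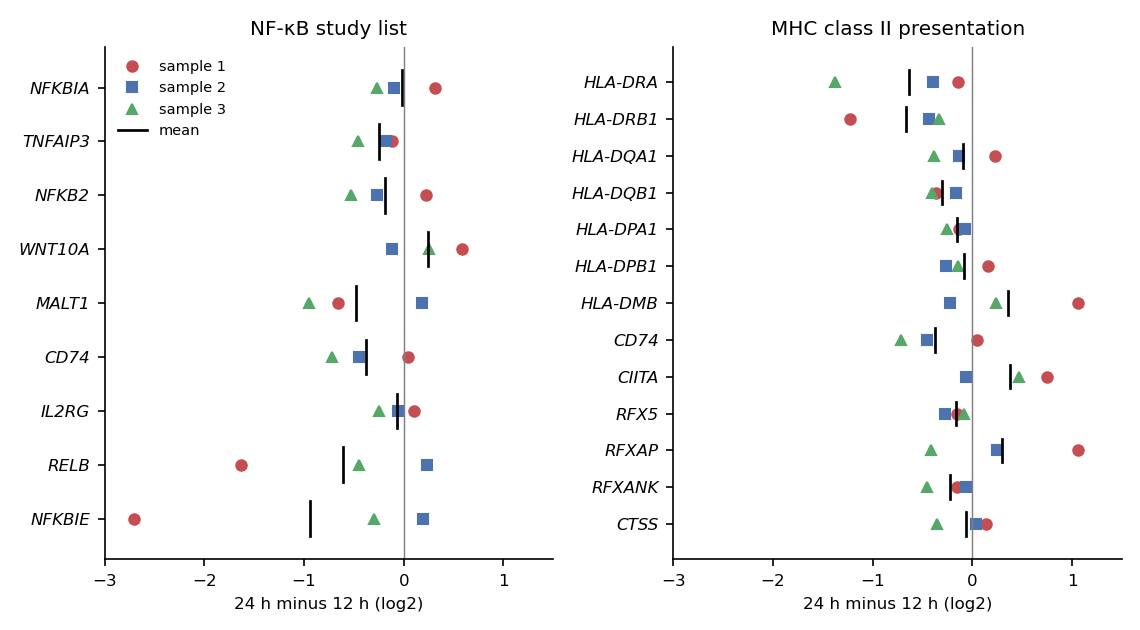
Within-pair differences of 24 h minus 12 h (x axis, log2) for the measured members of the NF-κB study list (left) and of the MHC class II list (right); symbols are the 3 sample numbers and black bars their means. TNFAIP3 is the one gene of the left panel with 3 values below 0, and HLA-DRA, HLA-DRB1, HLA-DQB1, HLA-DPA1, RFX5 and RFXANK are those of the right panel.

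MHC class II genes, which present peptides to helper T cells and which plasma cells keep low, had an above-background share of members lower at 24 h in every pair. Of 21 genes of class II presentation and its regulators 13 were measured on all 6 arrays; 6 of 13 were lower in all 3 pairs, 46.2% against the background of 21.1%, and 0 were higher. With the arrays centred on the features they share, 6 of 13 were lower again, beside a background of 16.3%, with CD74 in place of RFX5. The median over members was -0.15, against 0.002 over all rows, and by pair it was 0.04, -0.16 and -0.36 in samples 1, 2 and 3. No member passed over all rows. Earlier results of these arrays already showed class II genes lower in treated cells, so this is no independent evidence.

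HLA-DRB1 encodes a β chain of HLA-DR. Its ratio was -0.16, -0.23 and -0.44 at 12 h and -1.39, -0.66 and -0.78 at 24 h in samples 1, 2 and 3. All 24 h values lay below all 12 h values (mean difference -0.67 ± 0.49, SD, n = 3 pairs), and without sample 1 the mean was -0.39. Of its 3 complete features 2 were lower in every pair. An incomplete one lay above 0 in both pairs where it had values, at 0.21 in sample 2 and 0.46 in sample 3. Of the other incomplete ones, one lay at 0.26 in sample 3 and one at -0.51 in sample 2. HLA-DRA, the α chain of HLA-DR, was at -1.41, -0.18 and -0.33 and then at -1.55, -0.58 and -1.71. Sample 1 was already low at 12 h, so the groups overlapped, and the largest part of the mean of -0.64 ± 0.65 came from sample 3. Without sample 3 it was -0.27. HLA-DQB1 differed by -0.36, -0.16 and -0.41 and HLA-DPA1 by -0.14, -0.07 and -0.25. Of 4 complete HLA-DQB1 features 3 were lower in every pair, and the feature means ran from -0.67 to 0.23. For HLA-DPA1 it was 0 of 3 features, with means from -0.46 to 0.11, so only their average was lower in every pair.

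Other class II members had differences of both signs. CD74, the invariant chain that guides class II molecules and one that the study list also holds, was at -1.75, 0.17 and -0.34 at 12 h and at -1.71, -0.28 and -1.06 at 24 h. It was lower at 24 h in samples 2 and 3 and differed by 0.04 in sample 1. HLA-DQA1 stood at -0.10 ± 0.31 (SD, n = 3 pairs) and HLA-DPB1 at -0.08 ± 0.21. HLA-DMB, a subunit of the peptide exchange factor HLA-DM, differed by 1.06, -0.22 and 0.23. CTSS, the protease that trims the invariant chain, stood at -0.06 ± 0.26. HLA chains share much sequence, so their features may read each other's RNA.

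Regulators of class II transcription differed in direction. CIITA, the coactivator that sets class II expression, was at -0.51, -0.66 and -0.43 at 12 h and at 0.24, -0.72 and 0.03 at 24 h, so it was below the array median on all arrays at 12 h and on 1 of 3 at 24 h. Of the RFX subunits, which bind class II promoters, RFX5 differed by -0.15, -0.27 and -0.09 and RFXANK by -0.15, -0.07 and -0.45, both lower in every pair, and RFXAP by 1.06, 0.24 and -0.41. With the centring on shared features RFX5 was no longer lower in every pair. Of its 2 features 1 was lower in every pair, and their means were -0.36 and 0.02.

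Class II promoters carry a Y box, a CCAAT element bound by NF-Y, beside the sites of RFX. CCAAT was searched on both strands (ATTGG on the other) in windows of 300 bases. It was present in 7 of the 10 measured members of the class II list that had a RefSeq promoter. The list also holds regulators and CTSS, so the 10 are not all class II chains. Of 27305 promoters of all genes 35.7% had it. A match is a run of letters and not a shown site. The promoters of 2 genes lower in every pair are given, from GRCh38.p14, HLA-DRB1 at chr6:32589799-32590098 and HLA-DQB1 at chr6:32666608-32666907, both on the minus strand and written 5′ to 3′ along the gene, with CCAAT on either strand in capitals:
HLA-DRB1: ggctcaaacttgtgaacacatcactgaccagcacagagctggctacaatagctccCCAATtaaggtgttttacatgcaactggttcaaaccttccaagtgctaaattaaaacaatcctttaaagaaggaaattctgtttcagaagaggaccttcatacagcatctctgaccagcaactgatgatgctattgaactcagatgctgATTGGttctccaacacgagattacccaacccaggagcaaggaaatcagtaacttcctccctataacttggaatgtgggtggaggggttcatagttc
HLA-DQB1: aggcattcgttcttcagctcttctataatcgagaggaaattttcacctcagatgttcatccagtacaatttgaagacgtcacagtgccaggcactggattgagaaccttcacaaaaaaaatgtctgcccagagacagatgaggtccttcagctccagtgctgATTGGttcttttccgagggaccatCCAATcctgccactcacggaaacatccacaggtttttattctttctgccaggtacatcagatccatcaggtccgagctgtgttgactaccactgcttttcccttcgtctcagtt

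Genes of translation factors had an above-background share of members lower in every pair. Of 15 measured translation factors 7 were lower in all 3 pairs (46.7%, background 21.1%) and 1 was higher, EIF6, a factor of large subunit assembly (0.47 ± 0.36, SD, n = 3 pairs). EIF4E, the cap-binding protein, was at 0.68, 0.27 and 0.27 at 12 h and at -1.27, -0.15 and 0.10 at 24 h, without overlap of the groups; sample 1 gave most of its mean of -0.85. EIF2B1, a subunit of the exchange factor of eIF2, differed by -0.40, -0.27 and -0.29, and EIF2S2, the β subunit of eIF2, by -0.52, -0.005 and -0.38. EIF2S2 had both signs on the deposited values and with the centring on shared features. Another subunit of the exchange factor, EIF2B2, had both signs here but was higher in every pair under each of the other centrings and normalizations. EIF2S1, another subunit of eIF2, was of neither direction under any of them. With the centring on shared features 5 of 15 were lower (33.3%, background 16.3%) and 3 higher (20.0%, background 14.7%). EIF2B1 and EIF2S2, and other list members named beyond the extremes of a list, were picked after their values were seen.

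Of 21 measured genes of hypoxia and glycolysis 8 were lower in all 3 pairs (38.1%, background 21.1%) and 0 higher, but this share rested in part on the centring. With the arrays centred on shared features it was 4 of 21 (19.0%), near the 16.3% of all rows, and 1 was higher. VEGFA, the angiogenic factor induced by HIF1, was at 0.52, 0.02 and 0.51 and then at -0.36, -0.02 and 0.10. HIF1A itself differed by -0.31, -0.13 and -0.26, the glucose transporter gene SLC2A3 by -0.35, -0.21 and -0.19, and the hexokinase gene HK2 by -0.38, -0.17 and -0.12. The median over members was -0.13, with pair medians of -0.18, -0.17 and -0.11.

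**Figure D4:**
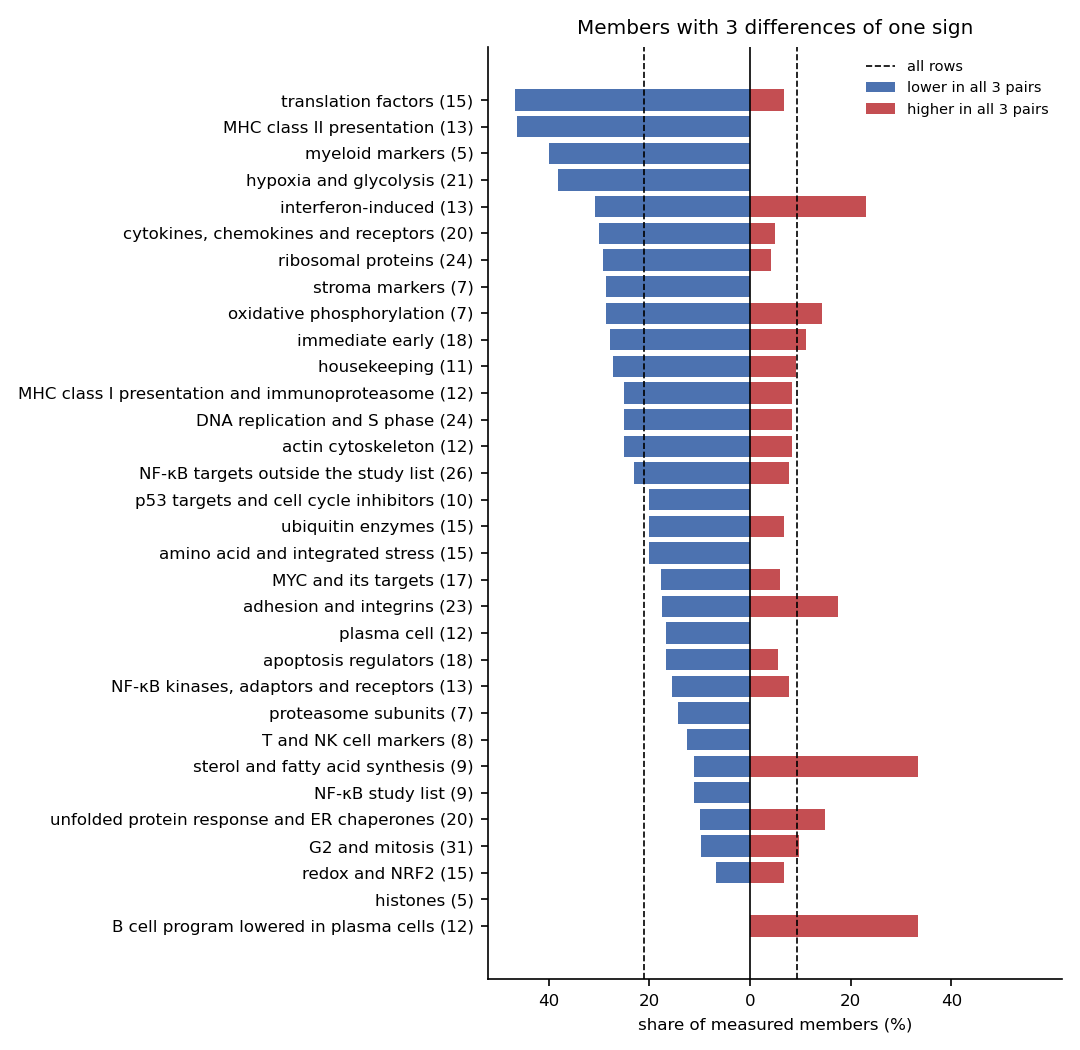
Share of the measured members of each gene list with at least 5 measured (y axis; number measured in brackets) that were lower (left, blue) or higher (right, red) at 24 h in all 3 pairs (x axis, %). Dashed lines are the shares over all rows, 21.1% and 9.37%; among these lists translation factors and MHC class II reach furthest to the left, and sterol genes and the B cell program to the right.

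Genes that plasma cells silence from the B cell stage had an above-background share of members higher at 24 h. Of 12 measured 4 were higher in all 3 pairs (33.3%, background 9.37%), and 0 were lower. They were EBF1 and BACH2, transcription factors of B cell identity, CD79B, a signalling chain of the B cell receptor, and CR2, the complement receptor CD21. EBF1 was at 0.99, 0.08 and -1.07 at 12 h and at 1.57, 0.37 and -0.23 at 24 h in samples 1, 2 and 3, so that the samples differed more from each other than the times did (mean difference 0.57 ± 0.28, SD, n = 3 pairs). BACH2 differed by 0.30, 0.14 and 0.06. The count was 4 of 12 under each of the other 4 centrings and normalizations, with SYK in place of BACH2 after quantile and scale normalization, while the share over all rows went from 9.37% up to between 11.7% and 14.7%. Of 12 plasma cell genes 2 were lower (16.7%, below the 21.1% of all rows; list median -0.009), JCHAIN, the joining chain of polymeric antibodies (-0.52 ± 0.42), and the chemokine receptor gene CXCR4 (-0.32 ± 0.27), and 0 were higher.

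In the sterol and fatty acid list 3 of 9 measured genes were higher in all pairs (33.3%, background 9.37%) and 1 lower (11.1%, background 21.1%). Besides INSIG1 these were SCD, the stearoyl-CoA desaturase gene, with differences of 0.44, 0.25 and 0.50, and SREBF2, the main transcription factor of cholesterol synthesis, with 1.63, 0.31 and 0.004. The value of SREBF2 came from sample 1, where the 12 h ratio was -1.80. After quantile and scale normalization SREBF2 was no longer higher in every pair, which left 2 of 9 (22.2%), beside 11.7% and 11.8% of all rows. SQLE, the squalene epoxidase gene, was the member lower in every pair, by -0.20, -0.006 and -0.47, and it lost that under the centring on shared features. The list median was 0.03, against 0.002 over all rows. It depended on the setting: 0.28 after quantile and 0.25 after scale normalization, 0.26 with array weights, 0.22 without sample 1 and -0.06 without sample 2.

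Integrin and other adhesion genes split. Of 23 measured 4 were higher in all pairs (17.4%, background 9.37%) and 4 lower (17.4%, background 21.1%). The 4 higher ones were all leukocyte or matrix integrin chains: ITGB7 and its partner ITGA4 (0.33 ± 0.34, SD, n = 3 pairs), ITGAL, the α chain of LFA-1 (0.80 ± 1.04), and ITGA5 (0.21 ± 0.06). The 4 lower ones were ITGAV, ICAM3, VCAM1 (-0.50 ± 0.66) and CD9. VCAM1 had both signs under each of the other 4 centrings and normalizations, which left 2 or 3 of 23 lower. With the centring on shared features 4 of 23 were higher (17.4%), near the 14.7% of all rows there, with ITGB5 in place of ITGA5.

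Cytokine and chemokine genes and their receptors had 6 of 20 members lower (30.0%, background 21.1%) and 1 higher (5.0%, background 9.37%). The higher one was IL16 (0.56 ± 0.36, SD, n = 3 pairs), whose groups did not overlap. IL2RB, a chain of the receptors for IL-2 and IL-15, was at -0.25, 0.08 and -0.24 and then at -2.21, -0.01 and -0.63. IL7R differed by -0.99, -0.22 and -0.51. Among NF-κB targets outside the study list 6 of 26 were lower (23.1%, near the background) and 2 higher, the list median being -0.16. MIR155HG and the chemokine gene CXCL2 (-3.68, -0.42 and -0.05) were among the former, and CD83 (0.76, 0.05 and 0.04) and CCL2 the latter. Of 13 kinases, adaptors and receptors of the pathway 2 were lower (15.4%), BCL10 and CHUK, the IKKα gene (-0.48 ± 0.56). In the same list 1 was higher (7.69%), IKBKE, the IKKε gene, by 0.32, 0.53 and 0.50.

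Antigen processing for MHC class I had 3 of 12 members lower (25.0%) and 1 higher (8.33%), near the 21.1% and 9.37% of all rows. Both extremes were immunoproteasome subunits: PSMB9 differed by -0.79, -0.49 and -0.38 and PSMB10 by 1.57, 0.06 and 0.07. Interferon-induced genes had 4 of 13 lower (30.8%) and 3 higher (23.1%), with IFI6 at -0.99 ± 1.29 and BST2, the virus-tethering protein, at 0.80 ± 0.87 (SD, n = 3 pairs). Of 20 unfolded protein response and chaperone genes 2 were lower (10.0%) and 3 higher (15.0%), from DNAJC3 to SEL1L, a partner of the degradation ligase (0.38 ± 0.50). The higher share depended on the scaling. It was 7 of 20 (35.0%) after quantile and 6 of 20 (30.0%) after scale normalization, beside 11.7% and 11.8% of all rows. With the centring on shared features it was 4 of 20 (20.0%), beside 14.7%. In the amino acid stress list 3 of 15 were lower (20.0%), among them the glycyl-tRNA synthetase gene GARS1 by -0.72, -0.40 and -0.42, and 0 were higher.

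Lists of growth and survival genes held 9.68% to 25.0% of members lower in every pair, against 21.1% of all rows. Of 24 DNA replication genes 6 were lower (25.0%) and 2 higher, from MCM5 (-0.79 ± 1.09, SD, n = 3 pairs) to MCM7 (0.36 ± 0.21), 2 subunits of the same helicase. MCM5 had differences of both signs under each of the other 4 centrings and normalizations, and 4 of 24 were lower (16.7%) after quantile and scale normalization. PCNA, the sliding clamp, differed by nearly the same amount in each pair (-0.42, -0.44 and -0.40). Of 31 G2 and mitosis genes 3 were lower and 3 higher, with the phosphatase gene CDC25B at -0.99 ± 1.29 and the spindle factor TPX2 at 0.63 ± 0.67. MYC differed by 0.32, 0.16 and 0.28, the one member of 17 on its list to be higher in every pair, and 3 of 17 were lower, FBL, the rRNA methyltransferase gene, furthest (-0.38 ± 0.39). Of the 4 MYC features 2 were higher in every pair, and the feature means ran from -0.125 to 0.564. FBL had both signs with the centring on shared features and after quantile and scale normalization, where 1 of 17 was lower (5.88%), and with that centring 3 were higher (17.6%). Apoptosis regulators had 3 of 18 lower, with BNIP2 at -0.59 ± 0.65, and 1 higher, BIRC5, the survivin gene (0.52 ± 0.67). Among 10 targets of p53 and cell cycle inhibitors 2 were lower, CCNG1 and CDKN1B (-0.42 ± 0.40), and 0 higher.

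The remaining lists are given with their counts, to be read against 21.1% lower and 9.37% higher over all rows. Ribosomal proteins had 7 of 24 lower (29.2%) and 1 higher, from RPL11 (-0.60 ± 0.40, SD, n = 3 pairs) to RPS15A (0.39 ± 0.23). Immediate early genes had 5 of 18 lower (27.8%), ZFP36L2 furthest (-0.99 ± 1.24), and 2 higher (11.1%), with DUSP6 at 0.92 ± 1.24. Actin cytoskeleton genes had 3 of 12 lower (25.0%), PFN1 furthest (-0.41 ± 0.17), and 1 higher, VCL (0.59 ± 0.42). Respiratory chain genes had 2 of 7 lower (28.6%) and 1 higher (14.3%), ATP5F1B at -0.25 ± 0.20 and SDHA at 0.09 ± 0.06, which are also the extremes of the housekeeping list, where 3 of 11 were lower (27.3%) and 1 higher (9.09%). Proteasome subunits had 1 of 7 lower, PSME3 (-0.56 ± 0.47). Ubiquitin enzymes had 3 of 15 lower, UBQLN2 furthest (-0.85 ± 0.82), and 1 higher, UBE2H (0.17 ± 0.17). Redox genes had 1 of 15 lower, NQO1 (-0.32 ± 0.41), and 1 higher, CAT (0.52 ± 0.43), and of 5 histone genes 0 were of one direction. Of 4 heat shock genes 1 was lower.

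Markers of other cell types, where 21.1% of all rows is the background, gave 2 of 5 lower (40.0%) for the myeloid list (FCER1G furthest, -0.58 ± 0.43, SD, n = 3 pairs), 1 of 8 (12.5%) for the T and NK cell list (IL7R) and 2 of 7 (28.6%) for the stroma list (VIM, -0.32 ± 0.32). Of 3 erythroid and megakaryocyte markers 2 were lower (66.7%). None of these 4 lists had a member higher in every pair. Their medians were -0.16, 0.02, 0.06 and -0.12, and their part in the results above was not tested. GLCCI1, which an earlier analysis singled out at 12 h, went from -1.82, -0.26 and -1.41 at 12 h to -0.68, -0.55 and -0.14 at 24 h. It was nearer the array median at 24 h in samples 1 and 3 and further from it in sample 2. BMF, named in the same way, had no value on all 6 arrays and was not tested.

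Of 68 named genes with 3 differences of one sign, 60 kept it on the deposited values, 56 with the centring on shared features, 65 after quantile and 63 after scale normalization. Besides those already named, CXCL2, CHUK, UBE2H and NQO1 lost it on the deposited values and with that centring, ATP5F1B, SDHA and ZFP36L2 with that centring, and NQO1 and VIM after scale normalization. Many means rest on the pair of sample 1. Of the same 68 genes, 40 had a mean smaller by over 1.5 times without sample 1, 6 without sample 3 and 0 without sample 2. In the fit without sample 1, 11 rows passed, among them INSIG1 (0.85), SOS1 (-0.98) and HLA-DRA (-0.89). With 1 residual degree of freedom that fit gave every row the same variance, so these are the rows with the largest mean over samples 2 and 3, and agreement between the pairs had no part in the call.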

How the data were processed

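The deposited table holds the authors' log2 ratios of the 2 channels for 15246 spotted features, 1 column per array. Base 2 is an assumption. How the authors corrected background, filtered spots and normalized is not stated in the labels, and no intensities were used here, so the number of arrays limits the precision. The direction, Cy5 over Cy3, follows the labels and the usual convention. Array medians of the deposited values ran from -0.475 to 0.001 and features with a value from 6344 to 13007 (lowest for sample 1 at 24 h, highest for sample 2 at 12 h). Medians were subtracted array by array. Platform annotation gave 1 gene for 10169 features, several for 4 and none for 5073; symbols were updated through Entrez identifiers (10128) or accessions (17) with RefSeq names of GRCh38.p14, and 24 were kept. Features with values on all 6 arrays were averaged per gene.

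The 24 h against 12 h coefficient was fitted by lmFit and eBayes of limma 3.58.1 (R 4.3.3), with the sample number as a block, 2 residual degrees of freedom, two-sided tests and Benjamini-Hochberg adjustment over all rows at 0.05. The pairing comes from the sample numbers in the titles, and adjacent database identifiers give the same pairs. Deviations of same-numbered arrays from their group means correlated at 0.19, 0.28 and 0.26 across rows for samples 1, 2 and 3. Within a time the deviations sum to 0 over the 3 samples, so these values are not independent. Differently numbered arrays were not compared, so the values do not test the pairing. Named genes were the 8 per direction with the smallest p among those with 3 differences of one sign, the members of the NF-κB study list and of MHC class II, the lowest and highest member of one sign in each other list of at least 5 measured genes, and MIR155HG, ITGB7, BMF and GLCCI1. Members and lists were chosen with earlier results of these data known. The fit was run on simulated data in which the 3 pairs of a row had equal spread. That setting lacks the unequal spread of the real pairs, so no conclusion about these data is drawn from it. Figures were drawn with Python 3.11.15 and matplotlib 3.10.9.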

Additional observations from a re-analysis of the deposited data

How the results depend on the processing

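No row passed in the paired fit or under 11 alternatives, the fit without the replicate block (0 rows) included; leaving out 1 pair gave 0 to 11 rows. The pairing changed no call. Rows at an unadjusted p under 0.05 numbered 34, and 21 without the block, 86 with the pair as a random block, 26 on the deposited values, 30 with the centring on shared features, 290 after quantile and 304 after scale normalization, 156 with array weights, 85 with at least 2 complete pairs, 55 each for single features and with all 8 arrays, and 30 to 218 with 1 pair left out. Rows lower in every pair numbered 732, 565 to 1010 under the other settings on 3 complete pairs, 1345 with at least 2 complete pairs and 936 to 1391 with 1 pair left out. Rows higher in every pair numbered 325 (9.37%), 490 on the deposited values (14.1%) and 510 with the centring on shared features (14.7%). That centring took the share of lower among rows of one direction from 69.3% to 52.6%. The higher rows numbered 1124 of 6154 (18.3%) with at least 2 complete pairs and 481 to 993 (13.9% to 28.6%) with 1 pair left out. The NF-κB study list's median, -0.25, was -0.71 after quantile and -0.63 after scale normalization, and -0.289 to -0.145 with 1 pair left out. That of MHC class II, -0.15, was -0.33 after quantile and -0.31 after scale normalization, and -0.20 to -0.10 with 1 pair left out. Both normalizations rescale the arrays, so sizes after them are on another scale.

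The sign of a named gene's mean turned in 16 cases: NFKBIA was at 0.003 on the deposited values, 0.14 with at least 2 complete pairs and -0.18 to 0.11 with 1 pair left out. With at least 2 complete pairs CDC25B was at 0.05, PSMB10 at -0.039 and HLA-DPB1 at 0.11. That setting averages the features available on each array, so the 2 arrays of a pair can differ in the features behind a gene. HLA-DMB was at -0.043 with array weights, and WNT10A at -0.18 after quantile and after scale normalization. CTSS was at 0.031 with the median of the 3 differences, a setting chosen after seeing the data. With 1 pair left out HLA-DPB1 ran from -0.201 to 0.007, HLA-DQA1 from -0.26 to 0.047, IL2RG from -0.153 to 0.024, RFXAP from -0.087 to 0.651 and CTSS from -0.163 to 0.082. The causes were not tested.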

Other observations

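Single arrays hold very large values that no other pair repeats. In sample 1 the lowest difference was that of RAP2A, a Ras-like GTPase gene, at -9.92, with -0.05 and 0.51 in samples 2 and 3, and the highest that of SLC35E1, a transporter gene, at 10.26, with 0.29 and 1.15. In sample 3 the highest was ACAP1, at 4.58, with 0.14 and 0.025 in samples 1 and 2. HSP90B1, the endoplasmic reticulum chaperone GRP94, differed by 0.34, -0.30 and 3.06 in samples 1, 2 and 3, the last value coming from a ratio of -2.82 at 12 h. In sample 2, the pair with the narrowest spread, the lowest difference was -1.04, for SLC25A33, a mitochondrial pyrimidine carrier gene, which was lower in the other pairs too, at -0.17 and -0.48. These genes were picked after their values were seen.

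Features of one gene often disagreed. The 3 features of NFKBIA had mean differences from -0.25 to 0.42, the 6 of TNFAIP3 from -0.96 to 0.13, with 2 of 6 lower in every pair, and the 9 of CD74 from -0.58 to 0.10, with 6 of 9 lower in every pair although their average was not.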
